A study of Homo sapiens with 3 samples.

Results

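The Notch pathway genes NOTCH1, NOTCH2, NOTCH3, JAG1, JAG2, DLL1, RBPJ, MAML1, HES1 and HEY1 were examined in chromatin immunoprecipitation sequencing (ChIP-seq) peak lists from HuCCT1 cells, a human line of cholangiocarcinoma (CCA), the cancer that arises in bile ducts. They are 10 of the 19689 protein-coding genes of the GENCODE 44 annotation and were chosen by name as receptors, ligands, nuclear factors and target genes of the pathway. For each gene, every peak within 1 kb of a protein-coding transcription start site (TSS) of the gene, elsewhere in the gene or within 50 kb of either end of the gene was collected. The lists came from 3 libraries of the same line, with no treatment or genotype change named in the labels, 1 with an antibody against Strawberry Notch 1 (SBNO1), 1 with an antibody against TAF4 and 1 with control immunoglobulin (IgG), and the immunoprecipitates of several biological replicates had been pooled before each library was made. With 1 library per antibody there was no replicate error, so values are given without tests, and intervals on shares cover counting error only.

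SBNO1 is the human homologue of the fly gene strawberry notch, which was first described through its genetic links to Notch. TAF4 is a subunit of TFIID, the general transcription factor that recognises core promoters. In the Notch pathway, a ligand of the Jagged or Delta-like family on a neighbouring cell pulls on a Notch receptor, proteases of the ADAM family and gamma-secretase cut the receptor, and its intracellular part moves to the nucleus. There it joins the DNA-binding protein RBPJ and a Mastermind coactivator such as MAML1 and switches on target genes such as HES1 and HEY1, which encode transcriptional repressors. The pathway directs the formation of bile ducts in the developing liver, and JAG1 and NOTCH2 are the genes mutated in Alagille syndrome, in which bile ducts are scarce.

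SBNO1 peaks were present at the promoters of 5 of the 10 genes: the receptor gene NOTCH2, the ligand gene JAG1, the nuclear factors RBPJ and MAML1, and the target gene HES1. Over all protein-coding genes, 25.7% had an SBNO1 promoter peak, and the exact (Clopper-Pearson) 95% interval of 5 of 10 genes was 18.7% to 81.3%, so this share was not separable from the background at 10 genes. The count depended on the score, with 3 genes at or above the median score of the list (RBPJ, MAML1 and HES1) and 2 at the highest score of 1000 (MAML1 and HES1). A score limit lowers the count of any set of genes, and shares of all genes under these limits are not given here. TAF4 peaks were present at 6 of the 10 promoters (interval 26.2% to 87.8%), the same 5 and NOTCH1, beside 31.9% of all genes. All 5 genes with both had an overlapping SBNO1 and TAF4 promoter peak, and 22.3% of all genes had such a pair. Over all genes, 6280 had a TAF4 promoter peak, of which 1830 had no SBNO1 promoter peak and 4387 had an overlapping pair. Overlap was thus usual wherever both peaks were present. Under either score limit, 2 members kept such a pair. NOTCH1 was the member with a TAF4 but no SBNO1 promoter peak, a class that held 9.29% of all genes. IgG peaks were present at 1 of the 10 promoters, HES1 (1.41% of all genes; interval 0.253% to 44.5%), so HES1 was also the member with promoter peaks in all 3 libraries, a class that held 1.39% of all genes. NOTCH3, JAG2, DLL1 and HEY1 had no promoter peak in any library, and most of all genes had neither an SBNO1 nor a TAF4 promoter peak.

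**Figure D1:**
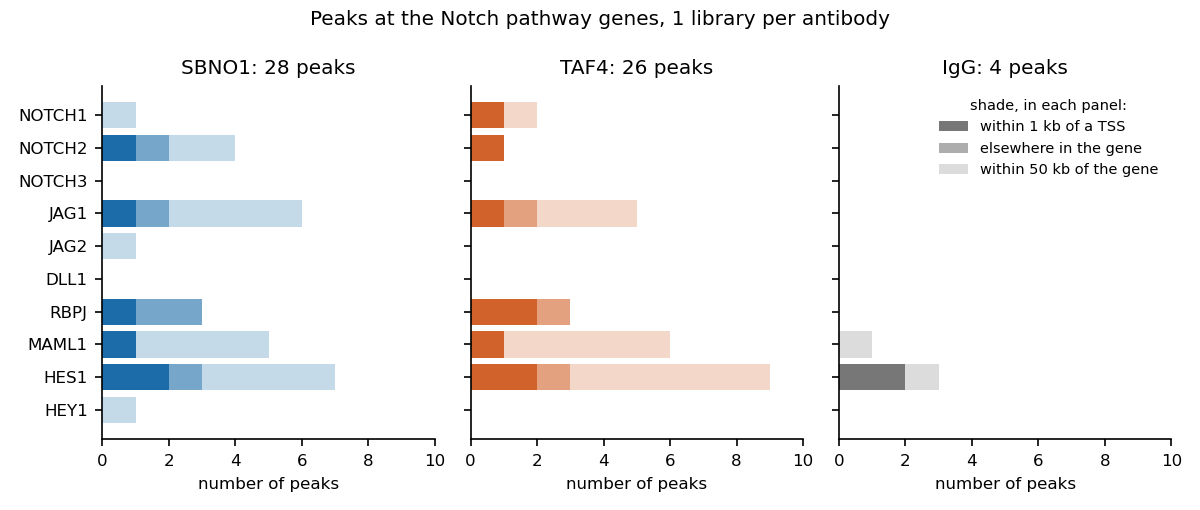
Number of peaks at each gene in the SBNO1, TAF4 and IgG lists (x axis), with the genes on the y axis; dark shading marks peaks within 1 kb of a TSS of the gene, middle shading peaks elsewhere in the gene and light shading peaks within 50 kb of it. HES1 had the most peaks in each library (7, 9 and 3), and NOTCH3 and DLL1 had none.

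Counting the gene spans and 50 kb on either side, 1696 kb in all, the SBNO1 list held 28 peaks, the TAF4 list 26 and the IgG list 4. These were 1.65, 1.53 and 0.236 peaks per 100 kb, beside 0.523, 0.413 and 0.0517 peaks per 100 kb over the genome. The genome values include sequence far from any gene, and a density around all protein-coding genes was not computed. Enrichment at the Notch pathway genes therefore cannot be read from these values. The control IgG list also lay above its genome value, and HES1 alone held 7 SBNO1, 9 TAF4 and 3 IgG peaks. Of the 28 SBNO1 peaks 6 lay at promoters, 5 elsewhere in the genes and 17 in the flanks, and of the 26 TAF4 peaks 8, 3 and 15. At least 1 SBNO1 peak was found at 8 of the 10 genes (62.3% of all genes), at least 1 TAF4 peak at 6 (61.7%) and at least 1 IgG peak at 2, MAML1 and HES1 (6.76%). Of the flank peaks, 5 of SBNO1, 6 of TAF4 and 1 of IgG lay at promoters of other genes. Each peak carried a score of at most 1000, which was used only to rank peaks within a list. The cap of 1000 was reached by 9 of the 28 SBNO1 peaks and 15 of the 26 TAF4 peaks, beside 34.6% and 43.0% of the full lists of 16147 and 12763 peaks, and by none of the 4 IgG peaks, beside 39.4% of 1598.

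**Figure D2:**
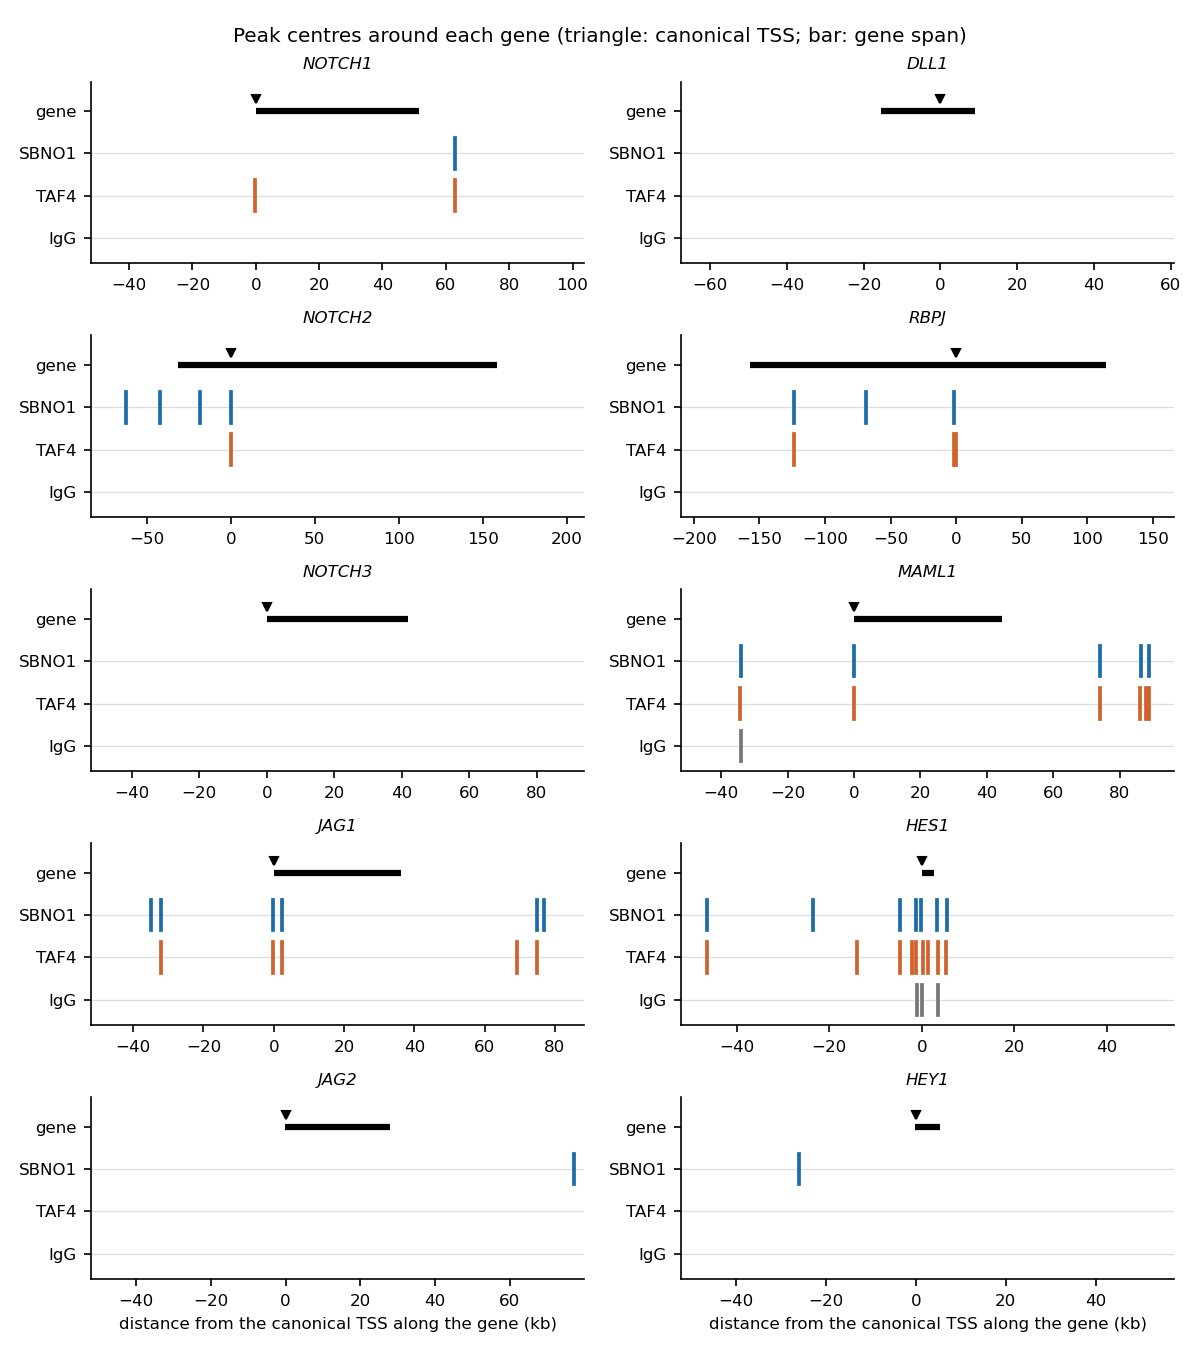
Peak centres at each gene by distance in kb from its canonical TSS, read along the gene (x axis, a different range for each gene), with a row per library; the black bar is the gene and the triangle the canonical TSS. Peaks gathered around the HES1 start, and the peaks downstream of MAML1 and NOTCH1 lay at the promoters of their neighbours.

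Among the receptors, NOTCH1, which lies on chr9:136494433-136546048 on the minus strand of GRCh38, had a TAF4 peak over its canonical TSS. The peak, at chr9:136545960-136546360, was 401 bp wide with a score of 1000, and its centre lay 112 bp upstream of the TSS. The nearest SBNO1 peak was 29.5 kb from any NOTCH1 TSS and the nearest IgG peak 782 kb. That SBNO1 peak (score 846) overlapped a TAF4 peak (score 1000) at the promoter of SEC16A, the neighbour beyond the 3' end of NOTCH1, and shared 291 bp with it.

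NOTCH2, the second receptor gene, had overlapping SBNO1 and TAF4 peaks at its canonical TSS. The SBNO1 peak at chr1:120069597-120070080 was 484 bp wide (score 671), and the TAF4 peak at chr1:120069563-120070062 was 500 bp wide (score 1000). They shared 466 bp, and their centres were 26 bp apart. An additional 3 SBNO1 peaks without a TAF4 peak lay farther upstream, in an intron of the longer NOTCH2 transcript (408 bp, score 770) and in the flank (542 bp, score 702, and 465 bp, score 523). The most upstream NOTCH2 TSS had no peak in any library. These positions need care, because NOTCH2 has partial copies on the same chromosome, the NOTCH2NL genes, and the reads were 50 bases long. Of all 50-base stretches in each NOTCH2 peak, between 4.46% and 43.5% occurred once in the genome, whereas all stretches of the 53 peaks at the other genes did. Within the promoter peaks the unique share was 11.5% for SBNO1 and 11.1% for TAF4.

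The copies carried peaks as well. The SBNO1 promoter peak of NOTCH2 shared between 61.6% and 87.4% of its stretches with each of 4 loci, the promoters of NOTCH2NLR, NOTCH2NLA, NOTCH2NLB and NOTCH2NLC, and each of these had an SBNO1 peak with a score of 1000 (these genes were chosen after their values were seen). The TAF4 peak of NOTCH2 shared between 63.0% and 80.3% of its stretches with the same 4 promoters, and each had a TAF4 peak with a score of 1000. Of the 7 further loci that shared at least 50 stretches with an upstream SBNO1 peak of NOTCH2, 5 had an SBNO1 peak. How reads with several equally good positions were placed is not given in the sources used here, so reads from NOTCH2 and from its copies cannot be told apart in these lists. Without NOTCH2, SBNO1 promoter peaks stood at 4 of 9 genes, TAF4 promoter peaks at 5 of 9 and overlapping pairs at 4 of 9.

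NOTCH3 had no peak of any library at its promoter, in the gene or within 50 kb. The nearest SBNO1 peak lay 218 kb and the nearest TAF4 peak 178.7 kb from a NOTCH3 TSS. Within 1 kb of its canonical TSS, 99.6% of the 50-base stretches were unique, and for the TSS of JAG2, DLL1 and HEY1, the others without a promoter peak, all were. The 250 bases upstream of the RefSeq start of NOTCH1, which lay under the TAF4 peak, and those of NOTCH3, which had none, are shown because they resemble each other in composition. They are written from 5' to 3' on the minus strand, with every match to the GC-box GGGCGG, the core bound by KLF and SP family zinc finger proteins, or to its reverse complement CCGCCC in capitals.
NOTCH1, chr9:136546049-136546298: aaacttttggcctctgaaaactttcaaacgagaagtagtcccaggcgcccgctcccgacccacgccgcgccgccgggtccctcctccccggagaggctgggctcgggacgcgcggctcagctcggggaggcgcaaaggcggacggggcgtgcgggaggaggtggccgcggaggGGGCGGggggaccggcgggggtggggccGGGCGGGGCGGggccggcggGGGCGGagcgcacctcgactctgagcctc
NOTCH3, chr19:15200996-15201245: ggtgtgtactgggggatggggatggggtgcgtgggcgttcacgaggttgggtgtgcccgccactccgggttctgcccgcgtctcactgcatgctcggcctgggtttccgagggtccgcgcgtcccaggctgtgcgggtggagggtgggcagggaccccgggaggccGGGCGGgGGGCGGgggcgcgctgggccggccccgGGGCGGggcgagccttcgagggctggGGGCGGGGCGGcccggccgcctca
Counting also the 50 bases after the start, NOTCH1 had 4 matches and a GC content of 77.0%, and NOTCH3 had 5 matches and 78.3%. The GC-box was found in 56.8% of the 21574 RefSeq promoters of the same length. NOTCH2, a receptor promoter with both an SBNO1 and a TAF4 peak, had 2 matches and 70.3%. NOTCH1 and NOTCH3 were chosen for their likeness, and a link between composition and the TAF4 peak was not tested.

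Among the ligands, JAG1 was the only member with a promoter peak. JAG1 lies on chr20:10637684-10673999 on the minus strand. Its SBNO1 promoter peak at chr20:10673767-10674603 was 837 bp wide, wider than 95.4% of the SBNO1 list, and scored 671. At chr20:10673735-10674477, the TAF4 peak was 743 bp wide and scored 1000, and the pair shared 711 bp. The upstream bases of JAG1 are shown as a ligand promoter that lay wholly under both peaks, with GC-box matches in capitals as above.
JAG1, chr20:10674000-10674249: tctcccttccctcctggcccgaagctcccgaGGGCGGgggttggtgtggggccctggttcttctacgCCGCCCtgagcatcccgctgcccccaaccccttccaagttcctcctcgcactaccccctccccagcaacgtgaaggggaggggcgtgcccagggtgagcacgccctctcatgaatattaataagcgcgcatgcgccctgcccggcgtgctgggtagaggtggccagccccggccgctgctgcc
Past this promoter, JAG1 had 5 SBNO1 and 4 TAF4 peaks, and JAG1 was the nearest gene to each of them. A pair in an intron, with centres 2.3 and 2.4 kb downstream of the TSS, had scores of 927 for SBNO1 and 758 for TAF4. Pairs in the flanks lay about 32 kb upstream (scores 1000 and 803) and about 49 kb beyond the nearest internal TSS, past the 3' end (1000 and 1000). SBNO1 peaks without TAF4 lay 35 kb upstream (score 658) and 51 kb past the internal TSS (score 1000), and a TAF4 peak without SBNO1 lay at 43 kb (score 659). No IgG peak lay within 50 kb of JAG1. Of all genes, 5.75% had at least 6 SBNO1 peaks and 7.42% at least 5 TAF4 peaks. These counts cover each gene's own span and 50 kb on either side, so the length searched differs between genes.

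The other ligand genes had few or no peaks. DLL1 had none, and its nearest SBNO1 and TAF4 peaks were 247.5 and 247.6 kb away. JAG2 had 1 SBNO1 peak (295 bp, score 735), 76.9 kb from the JAG2 TSS and closer to GPR132.

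RBPJ, the DNA-binding protein of the pathway, has 26 annotated protein-coding start sites on chr4:26163455-26435131, plus strand. An SBNO1 peak at chr4:26319040-26319841 (802 bp, score 906) overlapped a TAF4 peak at chr4:26319417-26319894 (478 bp, score 867). A second TAF4 peak without SBNO1, at chr4:26320528-26321051 (524 bp, score 671), covered the canonical TSS. SBNO1 peaks covered 3 and TAF4 peaks 10 of the 26 start sites. With 2 TAF4 promoter peaks, RBPJ was among the 4.23% of genes that had as many. Because the RBPJ start listed by RefSeq had no peak, the 250 bases before the most upstream covered start are shown instead, from 5' to 3' on the plus strand, with a match to TTCCCA, the reverse complement of the RBPJ core TGGGAA, in capitals.
RBPJ, chr4:26319386-26319635: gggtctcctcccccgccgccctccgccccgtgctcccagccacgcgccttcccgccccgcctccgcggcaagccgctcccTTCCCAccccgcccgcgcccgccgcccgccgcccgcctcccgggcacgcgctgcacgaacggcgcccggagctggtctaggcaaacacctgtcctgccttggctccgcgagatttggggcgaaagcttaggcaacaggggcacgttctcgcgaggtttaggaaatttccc
Each of the overlapping peaks held 4 matches to the RBPJ core in either direction. In the central 200 bp, the core was held by 7 of the 28 SBNO1 peaks at all members (25.0%), beside 20.6% of the list, and by 5 of the 26 TAF4 peaks (19.2%), beside 19.4%. In windows 1 kb to either side it was held by 8 of 56 (14.3%) for SBNO1 and 12 of 52 (23.1%) for TAF4, so matches to this short core were about as frequent beside the TAF4 peaks as in them. Within introns, an SBNO1 peak (score 826) overlapped a TAF4 peak (score 900) 34 kb downstream of the first TSS, and an SBNO1 peak without TAF4 (score 777) lay 67 kb upstream of the covered start. No IgG peak was found around RBPJ.

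MAML1, which encodes the coactivator that bridges RBPJ to histone acetyltransferases, lies on chr5:179732822-179777283, plus strand. Its promoter carried an SBNO1 peak at chr5:179732468-179733134 (667 bp) and a TAF4 peak at chr5:179732459-179732957 (499 bp), both with a score of 1000, which shared 490 bp. Its upstream bases are shown because MAML1 kept both peaks when only scores at the cap were counted, with GC-box matches in capitals.
MAML1, chr5:179732572-179732821: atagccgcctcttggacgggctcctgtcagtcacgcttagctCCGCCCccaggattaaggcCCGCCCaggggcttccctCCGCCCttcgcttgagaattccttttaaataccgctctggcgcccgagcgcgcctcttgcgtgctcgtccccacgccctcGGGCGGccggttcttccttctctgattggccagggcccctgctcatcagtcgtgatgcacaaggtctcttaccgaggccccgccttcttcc
All other peaks within 50 kb of MAML1, 4 of SBNO1, 5 of TAF4 and 1 of IgG, lay at promoters of CANX, MGAT4B and SQSTM1. Which gene a peak acts on was not tested. The IgG peak (score 483) lay at CANX, where SBNO1 and TAF4 peaks had scores of 1000.

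HES1, the target gene, had the most peaks in each library, with 7 for SBNO1, 9 for TAF4 and 3 for IgG. Of all genes, counted over spans and flanks of differing length as above, 3.85% had at least 7 SBNO1 peaks. At least 9 TAF4 peaks were found for 1.24% and at least 3 IgG peaks for 0.320%. Within 6 kb of the TSS (chr3, position 194136148, plus strand), 5 SBNO1 peaks covered 5042 bp and 7 TAF4 peaks 5701 bp. The peak over the TSS was 1295 bp wide for SBNO1 (chr3:194135444-194136738, score 978), wider than 99.2% of its list, and 1465 bp wide for TAF4 (chr3:194135598-194137062, score 1000), wider than 99.2% of its own. A second pair lay just upstream, at chr3:194134461-194135336 for SBNO1 and chr3:194134489-194135469 for TAF4, both with a score of 1000. At the 3' end of the gene and past it, an SBNO1 peak of 1899 bp (score 648), wider than 99.7% of the list, overlapped a TAF4 peak of 1006 bp (score 893).

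**Figure D3:**
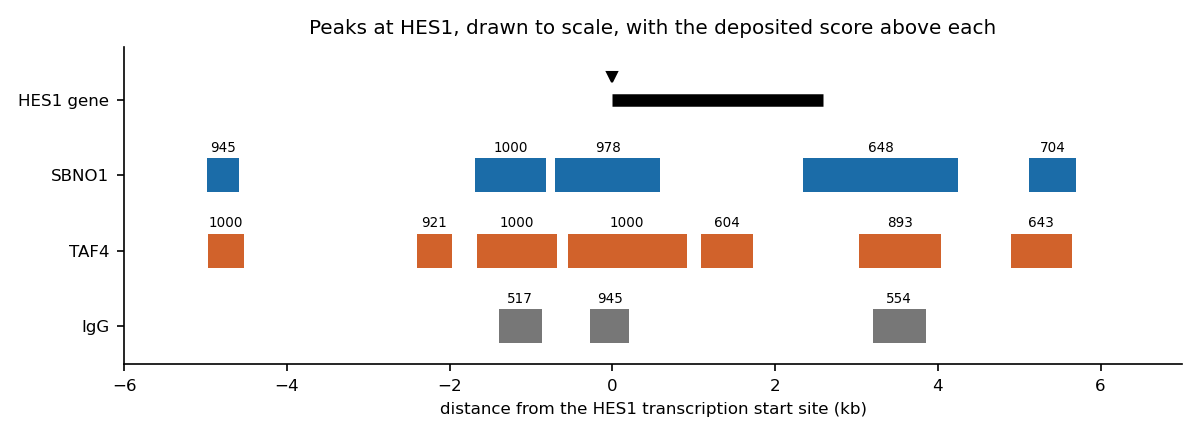
Peaks within 6 kb of the HES1 TSS, drawn to scale by distance in kb from the TSS (x axis), with a row per library and the deposited score above each peak; the black bar is the gene. The 3 IgG peaks (scores 517, 945 and 554) lay inside the span of SBNO1 and TAF4 peaks.

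The control library also had many peaks at this gene. IgG peaks at chr3:194134752-194135278 (527 bp, score 517), chr3:194135875-194136354 (480 bp, score 945) and chr3:194139345-194139997 (653 bp, score 554) each overlapped an SBNO1 and a TAF4 peak. Within the IgG list, 13.8%, 56.3% and 17.4% of peaks scored lower than these, in the same order. Of 19689 genes, 2 had 2 IgG promoter peaks, HES1 and ZNF687 (the latter named after its values were seen). All 50-base stretches of the HES1 peaks were unique. The part of non-specific recovery in the SBNO1 and TAF4 peaks at HES1 was not tested. With all IgG-overlapping peaks removed, HES1 lost its promoter peaks, and the other members with promoter peaks kept theirs.

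Further SBNO1 and TAF4 peaks at HES1 did not overlap an IgG peak. An SBNO1 and a TAF4 peak, both with a score of 1000, overlapped 46 kb upstream, and a pair with scores of 945 and 1000 lay 4.8 and 4.7 kb upstream. A pair downstream, 5.4 and 5.3 kb from the TSS, had scores of 704 and 643. By their nearest edge, an SBNO1 peak alone (score 564) lay 23.2 kb upstream, and TAF4 peaks alone lay 13.7 kb (score 399) and 1972 bp upstream (score 921) and 1095 bp downstream (score 604). The upstream 250 bases of HES1, covered by peaks of all 3 libraries, are shown with the RBPJ core TGGGAA in capitals.
HES1, chr3:194135898-194136147: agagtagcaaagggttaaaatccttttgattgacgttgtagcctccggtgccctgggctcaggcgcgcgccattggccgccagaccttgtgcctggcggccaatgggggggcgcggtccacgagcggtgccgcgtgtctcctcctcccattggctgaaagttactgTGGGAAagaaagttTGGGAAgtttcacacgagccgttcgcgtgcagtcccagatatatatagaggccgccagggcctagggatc
Matches began 84 and 70 bases before the start, both on the gene strand. At least 2 matches were found in 3.49% of RefSeq promoters and at least 1 in 22.7%. Of the 8 members with a RefSeq promoter entry, HES1 was the one with a match. For RBPJ that entry was a start without a peak, and the bases before its covered start, shown above, held 1 match. The HES1 promoter had no GC-box and 3 matches to the NFY box CCAAT on either strand, which 34.8% of promoters held at least once.

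HEY1, the other target gene among the members, had no promoter peak. An SBNO1 peak of 399 bp with a score of 901 lay 25.7 kb upstream of its nearest TSS, and no TAF4 peak lay within 262 kb.

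**Figure D4:**
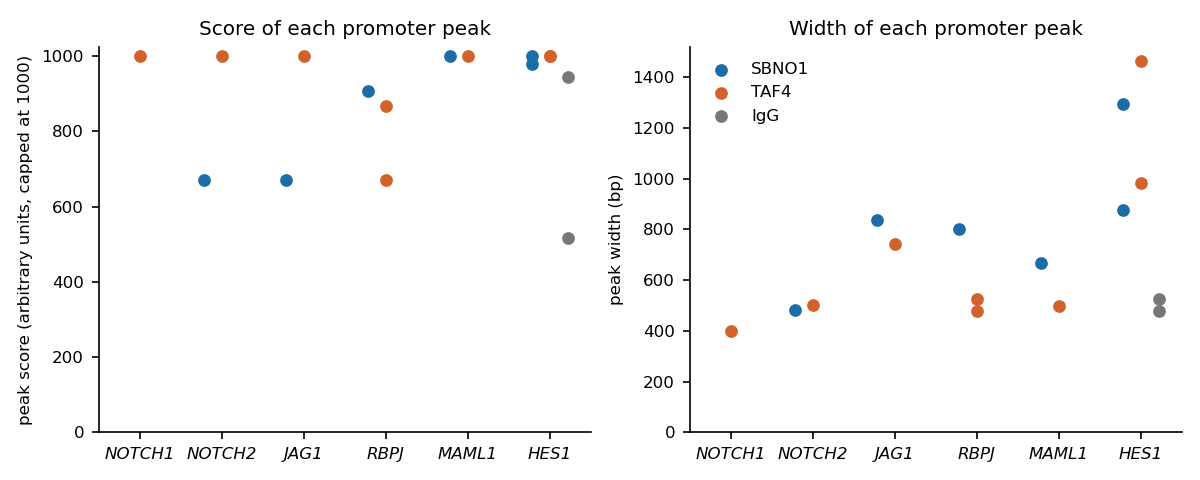
Score (left, arbitrary units with a cap of 1000) and width in bp (right) of each promoter peak, by gene on the x axis and with a point per peak coloured by library; points that coincide at the cap overlie each other. The SBNO1 peaks of NOTCH2 and JAG1 had the lowest SBNO1 scores (671), and in the SBNO1 and TAF4 lists the peak over the HES1 TSS was the widest.

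Each of the 6 SBNO1 promoter peaks, of which HES1 had 2, was paired with 1 TAF4 peak. The centres of these pairs were 26 to 239 bp apart with a median of 87 bp. Between 53.0% and 96.8% of the SBNO1 peak was shared. A further overlap at HES1 was left out of these ranges. There, the SBNO1 peak over the start met the upstream TAF4 peak by 26 bp (2.01% of the SBNO1 peak), with centres 1112 bp apart. Within the SBNO1 list, 23.3% of peaks scored lower than those at NOTCH2 and JAG1, 54.4% lower than that at RBPJ and 63.1% lower than that at the HES1 start, and the peaks at MAML1 and upstream of HES1 were at the cap. Within the TAF4 list, the peaks of these pairs were at the cap except that of RBPJ, with 42.1% of peaks lower. How the scores were scaled is not given in the sources used here, so they were not compared between the lists.

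Of all 28 SBNO1 peaks, 19 (67.9%, interval 47.6% to 84.1%) overlapped a TAF4 peak, beside 59.7% of the SBNO1 list. Within 1 kb of any protein-coding TSS, all 11 did, beside 83.8% of the list. Beyond 10 kb, 4 of 13 did (30.8%, interval 9.09% to 61.4%), beside 49.3% of the list, and the interval included the list value. Of the 9 SBNO1 peaks without TAF4, all beyond 10 kb, 3 lay at NOTCH2. Leaving NOTCH2 out, 4 of 10 distal peaks overlapped (40.0%). Of the 26 TAF4 peaks, 19 overlapped SBNO1 (73.1%), beside 75.2% of the TAF4 list. IgG peaks overlapped 4 of the 28 SBNO1 peaks (14.3%), beside 8.57% of the list, of which 3 lay at HES1 and 1 at CANX.

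Sequence matches were counted on both strands in the central 200 bp of each peak. AP-1, the FOS and JUN dimer, binds TGACTCA or its reverse complement TGAGTCA. Of the 17 SBNO1 peaks more than 1 kb from a TSS, 7 held this motif (41.2%, interval 18.4% to 67.1%), beside 36.6% of such peaks in the list, and of the 11 within 1 kb none did, beside 7.12%. In windows 1 kb to either side of the 28 SBNO1 peaks, 0 of 56 held it. The 7 peaks lay at NOTCH2, JAG1 (2), RBPJ (2), HES1 and HEY1. The surrounding bases are shown for all but HEY1, 81 bases each on the strand of the gene, with the motif in capitals.
NOTCH2 intron, minus strand, chr1:120088114-120088194: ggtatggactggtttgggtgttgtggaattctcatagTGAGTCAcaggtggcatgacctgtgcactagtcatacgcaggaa
JAG1 intron, minus strand, chr20:10671636-10671716: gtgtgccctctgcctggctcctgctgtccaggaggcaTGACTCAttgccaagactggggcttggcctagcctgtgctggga
JAG1 3' flank, minus strand, chr20:10598968-10599048: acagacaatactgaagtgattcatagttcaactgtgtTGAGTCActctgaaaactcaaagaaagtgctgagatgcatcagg
RBPJ intron with TAF4, plus strand, chr4:26197438-26197518: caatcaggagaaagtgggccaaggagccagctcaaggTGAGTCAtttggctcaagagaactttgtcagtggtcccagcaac
RBPJ intron without TAF4, plus strand, chr4:26252544-26252624: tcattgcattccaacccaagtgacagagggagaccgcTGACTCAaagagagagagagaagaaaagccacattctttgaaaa
HES1 upstream, plus strand, chr3:194089754-194089834: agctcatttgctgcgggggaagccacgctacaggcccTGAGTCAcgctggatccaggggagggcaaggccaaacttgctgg
TAF4 peaks overlapped 4 of these 6 SBNO1 peaks, those of JAG1, the first RBPJ site and HES1. Within 1 kb of a TSS, GC-boxes were held by 9 of the 11 SBNO1 peaks (81.8%, interval 48.2% to 97.7%), beside 53.4% of such peaks in the list. The interval included the list value. Of the 11, 5 lay at promoters of other genes, and all of these held a GC-box. At the promoters of the members themselves, the NOTCH2 peak and the peak over the HES1 start held none in this window. The ETS core CCGGAA was held by none of the 11, beside 25.0% of the list, and the upper bound of the interval, 28.5%, lay above that value. A match is a description of the sequence and does not show that a factor was bound.

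**Figure D5:**
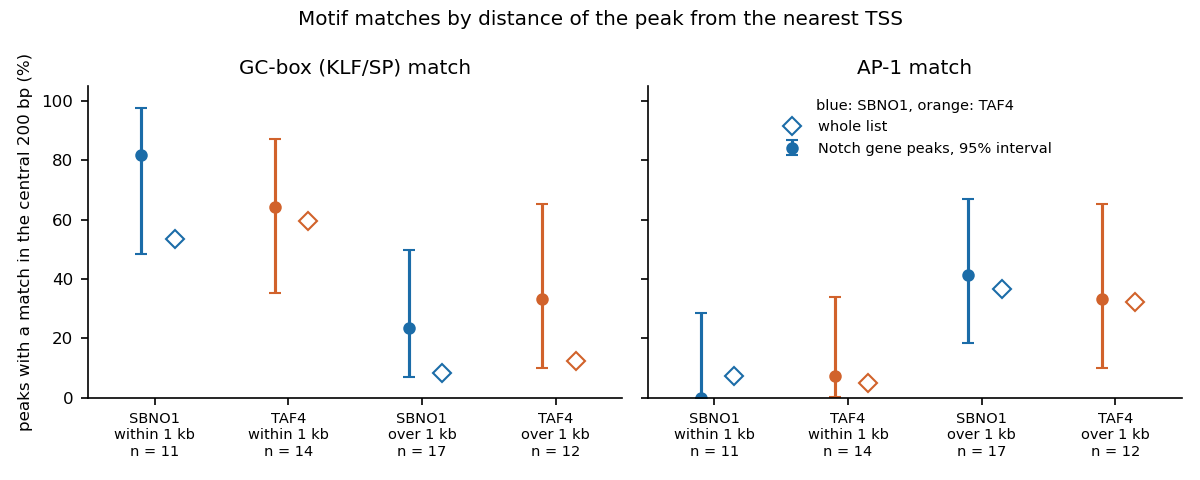
Percent of SBNO1 (blue) and TAF4 (orange) peaks with a GC-box or AP-1 match in the central 200 bp (y axis), for peaks within and over 1 kb from a TSS. Filled points are the peaks around the Notch pathway genes, those at promoters of neighbours included, with exact 95% intervals. Open diamonds are the full lists. AP-1 matches lay mainly in the distal peaks and GC-boxes in the promoter peaks, in the lists as well as around these genes.

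A wider list of 55 pathway genes, the members among them, was read by role. SBNO1 promoter peaks were present at 19 (34.5%, interval 22.2% to 48.6%), TAF4 peaks at 26 (47.3%, interval 33.7% to 61.2%), IgG peaks at 3 and overlapping pairs at 17 (30.9%, interval 19.1% to 44.8%), and 28 had neither SBNO1 nor TAF4. The shares of all genes, as given above, were 25.7% for SBNO1, 31.9% for TAF4, 1.41% for IgG and 22.3% for pairs. TAF4 without SBNO1 was present at 9.29% of all genes, so most of all genes had neither SBNO1 nor TAF4. Among the 45 that are not members, the counts were 14 for SBNO1, 20 for TAF4 and 12 pairs (26.7%, interval 14.6% to 41.9%), and the intervals for SBNO1 (18.2% to 46.6%) and TAF4 (29.6% to 60.0%) included the shares of all genes.

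Overlapping pairs were present at 4 of 9 genes for receptor cleavage. In the nuclear complex they were present at 4 of 8, with the members RBPJ and MAML1 counted. The share of all genes was 22.3%, and counts this small do not set a role apart from it. The cleavage genes with a pair included ADAM17, a membrane protease of the ADAM family. They also included NCSTN and APH1A, which encode a substrate-binding and a scaffold subunit of gamma-secretase. Scores of SBNO1 and TAF4 were 675 and 774 at ADAM17, 1000 and 1000 at NCSTN, and 923 and 896 at APH1A. ADAM10 had TAF4 only (score 979). The subunit gene PSENEN had SBNO1 only (score 614), in a peak that covered a PSENEN TSS but whose centre lay closer to a TSS of the neighbour U2AF1L4. FURIN, PSEN2 and APH1B had neither.

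In the nuclear complex, MAML2 (scores 994 and 458) and the acetyltransferase gene EP300 (1000 and 1000) had overlapping pairs and SNW1 had TAF4 only (836). The pair of EP300 lay 749 and 724 bp from its TSS. MAML3, KAT2B and CREBBP had neither. Of 7 corepressor genes, SPEN (1000 and 1000), TLE1 (508 and 1000) and NCOR1 (934 and 761) had pairs, although the pair near NCOR1 lay closer to a TSS of PIGL, and HDAC1 had TAF4 only (1000). SPEN, which encodes an RBPJ-binding repressor scaffold, had 3 TAF4 promoter peaks.

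Among the genes that modify or degrade Notch proteins, NUMB and ITCH had overlapping pairs at the score cap and also IgG peaks with scores of 908 and 906. With HES1 they were the 3 genes of the wider list with an IgG promoter peak. DTX2 and FBXW7 had TAF4 only, both with a score of 1000. Of the 5 genes for sugar transfer to the receptor, POFUT1 had a pair (1000 and 1000), and LFNG had an SBNO1 (577) and a TAF4 peak (1000) that did not overlap. Of the 5 further target genes, HES4 and NRARP had TAF4 only and none had SBNO1. NOTCH4, DLL3, DLL4, MIB1 and NEURL1 had no promoter peak, so of the 11 receptor, ligand and ligand uptake genes 2 had SBNO1 (NOTCH2 and JAG1) and 3 TAF4. The shares of all genes were 25.7% for SBNO1 and 31.9% for TAF4. With so few genes per role, these counts do not set a role apart from all genes.

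The labelled cell type was checked on promoters, which show peaks and not expression. Of 6 bile duct epithelial marker genes, 3 had an SBNO1 peak (KRT19, EPCAM and SOX9), 5 a TAF4 peak (these and KRT7 among them) and none an IgG peak, and CFTR had none. The shares of all genes were 25.7%, 31.9% and 1.41%. Of 5 hepatocyte marker genes, none had an SBNO1 or IgG peak and 1, SERPINA1, had a TAF4 peak, and with so few genes these counts do not set the lists apart from all genes.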

How the data were processed

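Chromatin of HuCCT1 cells was cut and precipitated with an enzymatic kit, and precipitates of at least 3 biological replicates per antibody were pooled and sequenced as 50-base single-end reads. Reads were trimmed with ktrim and aligned to GRCh38.p14 with Bowtie2 2.5.4. The sources differ on the peak caller: the submitters' processing notes name Genrich 0.6.1 and the methods of the study name normR. The lists used here gave 5057 genes with an SBNO1 and 6280 with a TAF4 promoter peak. Within 1 kb of a TSS lay 4791 of 16147 SBNO1 and 6042 of 12763 TAF4 peaks. The study reports far fewer bound promoters and a larger share of its peaks this close to a TSS. A promoter peak here is therefore not the same as a promoter that the study counted as bound. The peak threshold, the use of IgG as a control, duplicate removal and exclusion of problem regions are not given in the sources used here. The values deposited by the authors are a score per peak with a cap of 1000, which was used only for ranks within a list. The files hold no read counts, so depth is unknown, and a missing peak may reflect depth or threshold.

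Positions are 1-based. All peaks lay within the chromosomes of GRCh38. A peak belonged to a promoter when its edge was within 1 kb of any of 78567 protein-coding TSS of GENCODE 44, otherwise to a gene it overlapped, otherwise to genes within 50 kb. It counted for every gene in reach, and overlap needed 1 bp. Motifs were exact matches. Promoter sequences came from RefSeq on GRCh38, where 8 of 10 members matched. Unique 50-base stretches were counted by exact matches on both strands of the assembled chromosomes. Functions were tested on simulated peaks. Python 3.11.15, pysam 0.24.0, numpy 2.4.6, scipy 1.17.1 and matplotlib 3.10.9 were used. Members, lists and motifs were chosen with earlier results of these data known. Named genes were the members, the wider list by role and the nearest neighbours of member peaks, except where stated. Samples were grouped by the antibody in their labels, and alternatives to the distances, TSS sets, score limits, overlap and motif windows are given in the closing section. Values of some single genes of the wider list and the marker lists are not reported here, although they remain in the counts.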

Additional observations from a re-analysis of the deposited data

How the results depend on the processing

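Of 135 alternative values, 112 stayed within 1.5 times a count or within the 95% interval of a share, and 23 did not. TSS distances of 500 bp and 3 kb, other sets of TSS, nearest-gene assignment, peaks without IgG overlap, equal list lengths, a 50% reciprocal overlap and, chosen after seeing the data, leaving out NOTCH2 kept every count of promoters within this range. With 1 TSS per gene, RBPJ lost its SBNO1 promoter peak. Keeping scores at or above the list median left SBNO1 promoter peaks at 3 members (RBPJ, MAML1 and HES1) and pairs at 2, and 12 genes and 8 pairs in the wider list. Scores at the cap left SBNO1 at 2 members (MAML1 and HES1), pairs at 2 and IgG at 0, and 8 SBNO1 genes, 8 pairs and 0 IgG genes in the wider list. Peaks around the members numbered 15 (SBNO1) and 17 (TAF4) with 20 kb flanks and 43 (SBNO1) with 100 kb. They numbered 14, 15 and 1 (SBNO1, TAF4, IgG) at or above the median score and 9, 15 and 0 at the cap, where 46.7% of TAF4 peaks overlapped SBNO1. AP-1 matches fell to 0% (SBNO1) and 1.92% (TAF4) in windows 1 kb to either side, and RBPJ core matches in TAF4 peaks rose to 46.2% over whole peaks, which are longer. Filters on score keep fewer peaks by construction. No paired analysis was possible because no antibody had a repeat library.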
